A study of Mus musculus with 10 samples.

Results

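App, Bace2 and 7 other genes of amyloid processing were examined in the hippocampus of Ts65Dn mice, a model of Down syndrome. They are the 9 genes, of 19936 with a transcript cluster of their own on the array, that encode the amyloid precursor protein, its 2 paralogues and a set of the proteases and protease subunits that cut them. App and Bace2 lie on the part of chromosome 16 that Ts65Dn mice carry in 3 copies, and Bace1, Aplp1, Aplp2, Psen2, Ncstn, Aph1a and Adam10 are in 2 copies. All 9 were measured, each represented by its transcript cluster (the probes that read 1 transcript or part of it) with the highest mean over the arrays, and none was lost to a filter on signal. RNA came from the whole hippocampus, left and right together, of 10 male mice aged 16 weeks, with 1 array per mouse. There were 5 Ts65Dn mice and 5 control littermates without the extra chromosome, and both genotypes were on the F1 hybrid B6C3B background. The extra chromosome also carries a piece of Mmu17 that is not homologous to human chromosome 21, and the controls have 2 copies of all these genes. In a bulk extract of this kind, fewer cells of a type and less RNA per cell cannot be told apart.

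The amyloid precursor protein is a membrane protein of neurons and many other cells. The alpha-secretase ADAM10 cuts it within the amyloid-beta stretch and releases a soluble ectodomain. The beta-secretase BACE1 cuts it at the start of that stretch, after which gamma-secretase, a complex of a presenilin, nicastrin, an APH1 subunit and PSENEN, cuts the remaining stub inside the membrane and releases amyloid-beta. BACE2 is a relative of BACE1 that is known mainly for cuts elsewhere in the protein. APLP1 and APLP2 share the overall build of the precursor and several of its proteases but lack the amyloid-beta stretch. An extra copy of the human gene for the precursor is a known cause of early Alzheimer disease, and people with Down syndrome carry one, which makes the level of App a point of interest in these mice.

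The starts of App and of its paralogues are shown because the 3 genes encode 1 protein family while only App is in 3 copies. Each line is the 250 bases before the start of the transcript in the RefSeq table for GRCm38.p6, on the minus strand, with GC boxes (GGGCGG on either strand) and the E box CAGCTG in capitals. The table held an entry for 7 of the 9 genes, Bace1 and Bace2 being the others. The App window lies inside the span annotated for the gene, since that span begins further upstream.
App, chr16:85173708-85173957: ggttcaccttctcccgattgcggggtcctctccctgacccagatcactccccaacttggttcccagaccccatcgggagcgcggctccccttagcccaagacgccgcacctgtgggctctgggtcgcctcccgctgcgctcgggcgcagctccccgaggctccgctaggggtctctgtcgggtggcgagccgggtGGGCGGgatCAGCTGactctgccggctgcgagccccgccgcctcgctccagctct
Aplp1, chr7:30445583-30445832: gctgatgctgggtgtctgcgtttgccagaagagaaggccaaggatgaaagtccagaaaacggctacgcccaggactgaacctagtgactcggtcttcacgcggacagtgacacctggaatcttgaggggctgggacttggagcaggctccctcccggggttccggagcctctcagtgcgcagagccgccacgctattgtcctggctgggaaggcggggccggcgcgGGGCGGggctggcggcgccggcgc
Aplp2, chr9:31211849-31212098: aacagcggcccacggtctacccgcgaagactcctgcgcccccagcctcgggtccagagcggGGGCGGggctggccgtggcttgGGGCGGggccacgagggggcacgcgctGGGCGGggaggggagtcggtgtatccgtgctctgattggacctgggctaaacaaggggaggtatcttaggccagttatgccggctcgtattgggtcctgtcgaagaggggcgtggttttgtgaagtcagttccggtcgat

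All 3 windows were rich in G and C, at 70.8% for App, 66% for Aplp1 and 66.4% for Aplp2, compared with a median of 52.4% over the 32851 windows of the table. App held 1 GC box, Aplp1 held 1 and Aplp2 held 3, and such a box was found in 32.7% of all windows. The E box CAGCTG was found in the App window and in neither paralogue, and in 13.0% of all windows. None of the 3 held the letters TATAAA on either strand, which 12.4% of all windows did.

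Array medians lay between 7.38 and 7.41 on the log2 scale over the 23410 tested transcript clusters, and single values ranged from 3.73 to 14.14. The 9 markers of hippocampal neurons were each above the median signal of all tested clusters. In the comparison of Ts65Dn with control by limma, 0.312% of all tested clusters were called higher (adjusted p under 0.05) and 0.00427% lower.

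App was higher in Ts65Dn hippocampi, by 1.21-fold. The gene spans chromosome 16 from 84952666 to 85175255 (GRCm38). Its log2 signal was 13.04, 13.08, 13.14, 13.12 and 13.11 in Ts65Dn mice 1 to 5 and 12.70, 12.85, 12.87, 12.83 and 12.87 in controls 1 to 5. Every Ts65Dn mouse lay above every control, a separation in this direction that 0.577% of all tested clusters showed (0.308% were separated the other way), and the lowest value of all was that of control 1. The difference was 0.27 ± 0.04 (log2, SE; fold 95% interval 1.13 to 1.29; adjusted p = 0.0161 in limma, n = 5 per group). The upper end of the interval lies below 1.5, the ratio of gene copies. App was brighter than 99.6% of the tested clusters and was the brightest of the 127 measured genes of the chromosome 16 segment. The call was lost without Ts65Dn replicate 2, 3 or 4, with limma adjusted p-values of 0.0502, 0.0508 and 0.0549, while the difference stayed between 0.24 and 0.29 over the 10 fits that each left out 1 mouse.

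Bace2 had a difference close to that of App in size, at a low signal, and did not pass the test. The gene lies near the far end of the segment, at 97356728 to 97442936. Its log2 signal was 6.16, 6.14, 6.12, 6.26 and 6.40 in Ts65Dn mice 1 to 5 and 5.98, 6.04, 5.99, 5.94 and 6.05 in controls 1 to 5. The genotypes did not overlap, and the Ts65Dn mice were more spread (SD 0.117) than the controls (SD 0.0433). The difference was 0.22 ± 0.05 (log2, SE; fold 1.16, 95% interval 1.07 to 1.26; adjusted p = 0.392 in limma, n = 5 per group). Only 32% of the tested clusters were dimmer than Bace2, and whether its low signal had a part in its fold was not tested. Bace2 was at an unadjusted p of 0.00213 by limma, and 3.16% of all tested clusters were at an unadjusted p under 0.05. A test on ranks of fold changes called Bace2 and App higher, but it was lenient, calling 2.9% of all clusters higher and 2.46% lower.

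**Figure D1:**
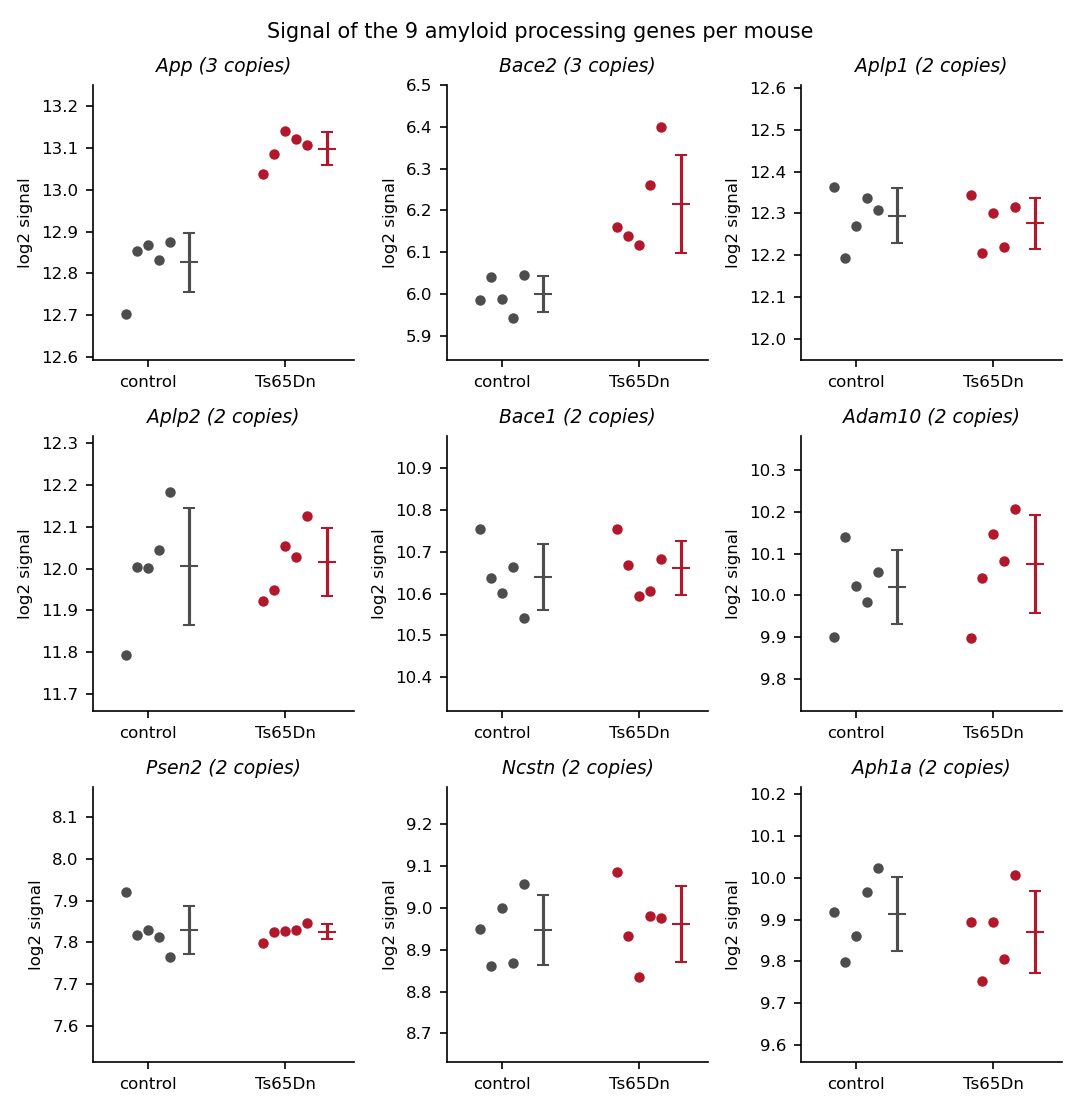
Log2 signal per mouse of the 9 genes in control (grey) and Ts65Dn (red) hippocampi, with mice in order of their number, the mean and SD beside the points (n = 5 per group) and the same span of 0.66 log2 units on every axis. The genotypes are apart for App and Bace2 and overlap for the 7 genes in 2 copies.

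None of the 7 genes in 2 copies was called, in either direction, by limma or by the rank method, and 0 were at an unadjusted p under 0.05. Their folds lay between 0.97 and 1.04, and the genotypes overlapped for all 7. Of all tested clusters, limma called 0.316% and the rank method 5.36%, and 3.16% were at an unadjusted p under 0.05. The genotypes did not overlap for 0.884%. Counts of 0 among 7 genes are near these shares and set the 7 apart from no other genes. A p above the threshold does not show equal levels, but the 95% intervals of the 7 folds together reached only from 0.89 to 1.14. An interval lying between 0.8 and the inverse of 0.8 was found for 93.0% of all tested clusters.

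Among the substrates, the paralogues Aplp1 and Aplp2 were measured at high signals, brighter than 98.5% and 97.85% of clusters. Aplp1, on chromosome 7 at 30434980 to 30445582, ranged from 12.21 to 12.34 in Ts65Dn and from 12.19 to 12.36 in controls, with a fold of 0.988 (95% interval 0.925 to 1.06). Aplp2, on chromosome 9 at 31149557 to 31211848, ranged from 11.92 to 12.13 in Ts65Dn and from 11.79 to 12.18 in controls, with a fold of 1.01 (95% interval 0.909 to 1.115). The controls of Aplp2 were the most spread of the 7 genes, and the Ts65Dn range lay within theirs.

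Of the proteases that make the first cut, Bace1, on chromosome 9 at 45838545 to 45862484, read 10.76, 10.67, 10.59, 10.61 and 10.68 in Ts65Dn mice 1 to 5 and 10.75, 10.64, 10.60, 10.66 and 10.54 in controls 1 to 5. Its fold was 1.015 (95% interval 0.945 to 1.09), so the 2 ranges nearly coincided. Adam10, on the same chromosome at 70678944 to 70780229, read 9.90, 10.04, 10.15, 10.08 and 10.21 in Ts65Dn and 9.90, 10.14, 10.02, 9.99 and 10.06 in controls. Its fold of 1.04 (95% interval 0.945 to 1.14) was the highest of the 7, with a difference of 0.05 ± 0.06 (log2, SE).

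The gamma-secretase subunits were measured as follows. Psen2, a catalytic presenilin on chromosome 1 at 180227004 to 180263467, had a fold of 0.998 (95% interval 0.945 to 1.05), and its 5 Ts65Dn mice lay within 7.80 to 7.85 while controls ran from 7.76 to 7.92. Ncstn, which encodes the substrate receptor nicastrin on the same chromosome at 172066013 to 172082789, ranged from 8.84 to 9.09 in Ts65Dn and from 8.86 to 9.06 in controls, with a fold of 1.01 (95% interval 0.931 to 1.097). Aph1a, a scaffold subunit on chromosome 3 at 95893921 to 95898592, ranged from 9.75 to 10.01 in Ts65Dn and from 9.80 to 10.02 in controls, with a fold of 0.97 (95% interval 0.890 to 1.06). It was the one member with 2 transcript clusters. None of the 10 annotated clusters nearest in identifier to the chosen one belongs to a gene on chromosome 3, so the chosen cluster may lie at a copy elsewhere, which was not checked by probe position. The other cluster, with 9 of 10 such neighbours on chromosome 3, gave a fold of 0.98 (95% interval 0.903 to 1.07), so both readings of Aph1a were close to 1.

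**Figure D2:**
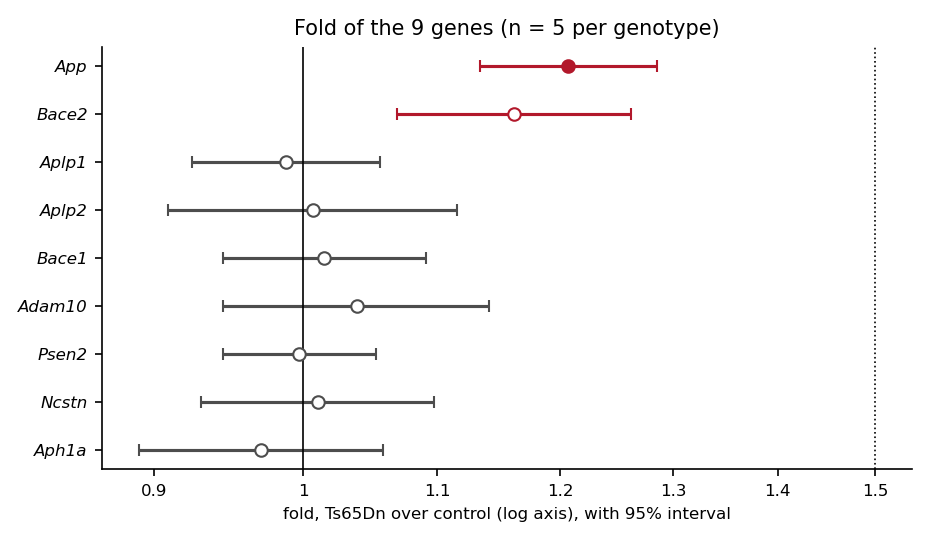
Fold of Ts65Dn over control with its 95% interval from limma for the 9 genes (n = 5 per group), on a log axis; red marks the genes in 3 copies, a filled point an adjusted p under 0.05, the solid line a fold of 1 and the dotted line the copy ratio of 1.5. Both red intervals lie between the 2 lines, and the 7 grey intervals cross 1.

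The mouse numbered 1 was the lowest of its genotype for App, Aplp2 and Adam10 and the highest for Aplp1 and Bace1, in Ts65Dn and in controls alike. Mouse 2 was likewise the lowest of both genotypes for Aplp1 and Aph1a, and mouse 5 the highest for Aplp2, Aph1a and Bace2. What the numbers stand for is not given in the labels, and this pattern was looked up after the values were seen.

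The genotype difference of each 3-copy gene was then set against that of its 2-copy relatives within each mouse, which removes any shift that an array shares between both genes. Only the change of this value between genotypes has a meaning, since signals of different probes are not on a common scale. App minus Aplp1 was 0.69, 0.88, 0.84, 0.90 and 0.79 in Ts65Dn mice 1 to 5 and 0.34, 0.66, 0.60, 0.49 and 0.57 in controls. All Ts65Dn mice lay above all controls, and the difference of 0.29 (log2) gave an exact permutation p of 0.00794, the smallest this design allows, and 0.0119 adjusted over the 3 family comparisons (n = 5 per group). App minus Aplp2 was 1.12, 1.14, 1.09, 1.09 and 0.98 in Ts65Dn and 0.91, 0.85, 0.87, 0.79 and 0.69 in controls. The genotypes were again apart, with a difference of 0.26 and the same exact permutation p of 0.00794 (0.0119 adjusted, n = 5 per group). The genotype difference of App was thus larger than that of both paralogues.

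Bace2 minus Bace1 was -4.60, -4.53, -4.48, -4.35 and -4.28 in Ts65Dn mice 1 to 5 and -4.77, -4.60, -4.61, -4.72 and -4.50 in controls. The genotypes overlapped, with 3 Ts65Dn mice above every control. The difference was 0.19 (exact permutation p = 0.0397, also 0.0397 adjusted over the 3, n = 5 per group). It did not hold under 2 of 3 further normalizations, each applied on top of the normalization already done. The adjusted exact permutation p was 0.0794 after a repeated quantile normalization and 0.0873 after cyclic loess. Nor did it hold in 7 of the 10 tests that left out 1 mouse (all but those without Ts65Dn replicate 1 or 2 or control replicate 5).

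**Figure D3:**
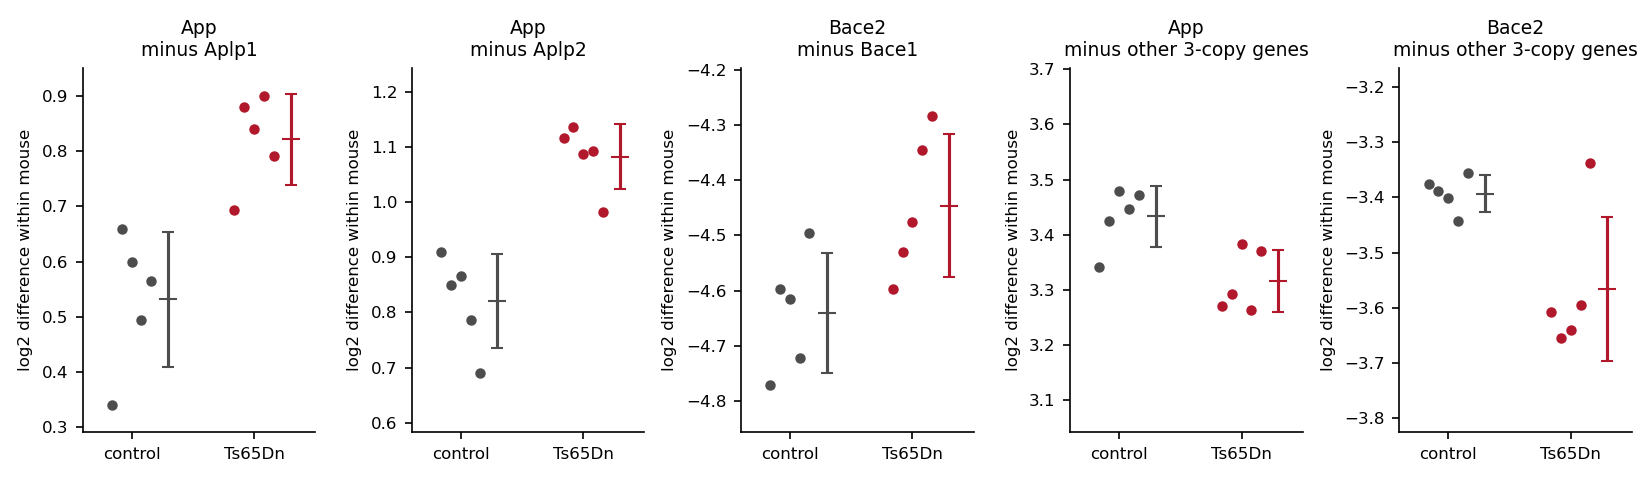
Log2 difference within each mouse between a 3-copy gene and its 2-copy paralogue (3 panels on the left) or the mean of the other 57 expressed 3-copy genes of chromosome 16 (2 panels on the right), for control (grey) and Ts65Dn (red) mice with mean and SD (n = 5 per group). App minus Aplp1 and App minus Aplp2 are apart between genotypes, and the other 3 values overlap.

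App and Bace2 were next compared with the rest of the segment in 3 copies, from Mrpl39 to Zbtb21 (chromosome 16, 84718281 to 97962627), where 33.1% of the 127 measured genes were called higher. Among 57 other genes of the segment with a signal above the median of all tested clusters, 39 were called, with a median fold of 1.32 and a range from 1.05 to 1.57. The fold of App was below that of 47 of these 57 genes. Per mouse, App minus the mean of these genes was 3.27, 3.29, 3.38, 3.26 and 3.37 in Ts65Dn and 3.34, 3.43, 3.48, 3.45 and 3.47 in controls. The difference was -0.12 (log2; exact permutation p = 0.0238, 0.0476 adjusted over 2 comparisons, n = 5 per group), and 3 of 5 Ts65Dn mice lay below every control. It turned to 0.06 (adjusted exact permutation p = 0.238) when every other gene of the segment, dim ones included, served as the comparison, and it passed in 2 of the 10 tests that left out 1 mouse.

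For Bace2 the same value was -3.61, -3.65, -3.64, -3.59 and -3.34 in Ts65Dn and -3.38, -3.39, -3.40, -3.44 and -3.36 in controls. Ts65Dn mouse 5 lay above every control and the other 4 below every control. The means differed by -0.17 (exact permutation p = 0.0476, also 0.0476 adjusted, n = 5 per group). It passed in 1 of 10 tests without 1 mouse and was 0.01 against all other segment genes. The 10 segment genes nearest to it in signal, with means from 5.80 to 6.40, had folds from 0.958 to 1.04 and 0 calls. Just outside that window, the metalloprotease gene Adamts5 (signal 5.71, called), Donson (6.55, not called) and Kcne2 (6.56, not called) had larger differences than Bace2. They were 0.29 ± 0.05, 0.29 ± 0.09 and 0.39 ± 0.39 (log2, SE). Other genes just outside it had smaller differences than Bace2, among them Sim2 (signal 5.70), Itgb2l (6.50), Runx1 (6.52) and Ripply3 (6.55). Theirs were -0.0003, -0.0033, 0.15 and 0.02. Kcne2 is also among the choroid plexus markers described below, and the 95% interval of its fold ran from 0.727 to 2.35. Over the 68 other segment genes below the median signal the median fold was 1.01, with 2 called, 9 with a fold above that of Bace2 and 4 with all Ts65Dn mice above all controls. Those 9 included Kcne2 and Clic6 (fold 1.58, 95% interval 0.483 to 5.17), whose intervals reached far to both sides of 1. These values were looked up after those of Bace2 were known and were not tested.

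**Figure D4:**
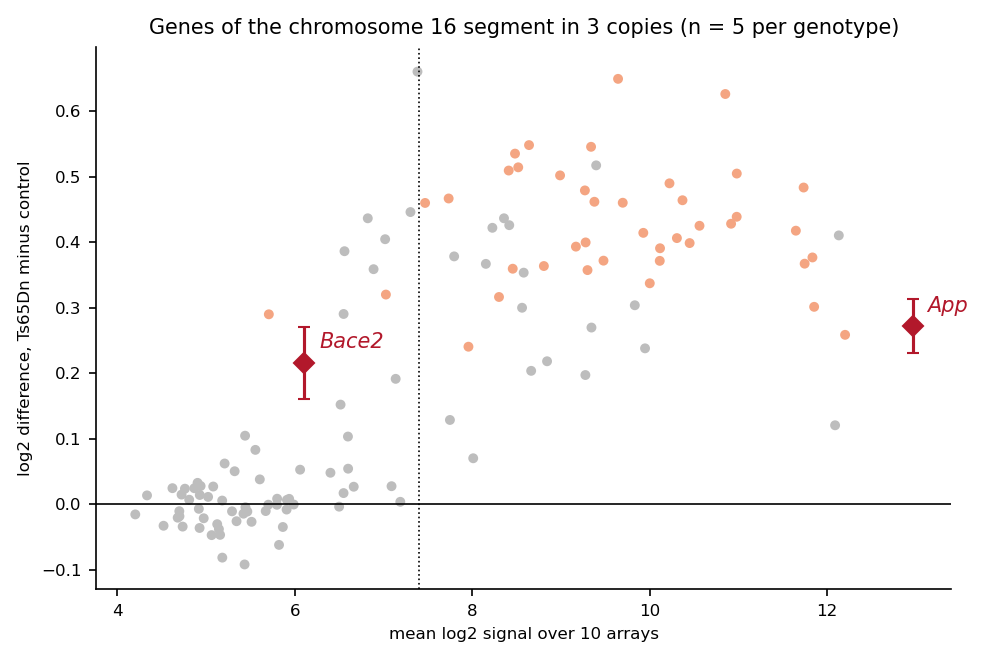
Log2 difference between Ts65Dn and control (n = 5 per group) plotted by mean log2 signal of the 10 arrays for 127 measured genes of the chromosome 16 segment; orange points passed adjusted p 0.05, grey points did not, diamonds with SE are App and Bace2, and the dotted line is the median signal of all tested clusters. App is the brightest gene and lies below most orange points, and Bace2 lies above the 10 genes nearest to it in signal, though not above all dim genes.

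Of the 10 brightest genes of the segment, App among them, 8 were called, with folds from 1.09 to 1.42 and a median of 1.29, and 7 had a fold above that of App. The folds of the 5 brightest were lower than those of the next 5 with 1 exception. After App came Atp5j, an ATP synthase subunit, at 1.196, Tmem50b at 1.33 (not called, 95% interval 0.958 to 1.84), the calmodulin-binding peptide gene Pcp4 at 1.09 (not called) and Sod1 at 1.23. The next 5, among them the kinase gene Dyrk1a at 1.29, ran from 1.29 to 1.42. Whether high signal had a part in the fold of App was not tested.

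The neighbours of App were all in the same copy number and had higher values than App with 1 exception. Before it on the chromosome, the adhesion gene Jam2 was at 0.46 ± 0.05 (log2, SE; adjusted p = 0.00226 in limma), Atp5j at 0.26 ± 0.03 (adjusted p = 0.00402) and the transcription factor gene Gabpa at 0.43 ± 0.08, which missed the threshold (adjusted p = 0.0662). After it, Cyyr1 was at 0.51 ± 0.08 (adjusted p = 0.0212) and the metalloprotease gene Adamts1 at 0.32 ± 0.06 (adjusted p = 0.0419). When each mouse was left out in turn, Jam2 and Atp5j passed in all 10 fits, Cyyr1 in 5 and Adamts1 in 2. The non-coding RNA gene Gm10791, at 84972211 to 84979451, lies inside the span of App. It was dim and had a difference of 0.44 ± 0.11 (adjusted p = 0.419), larger than that of App itself, and its cluster was measured apart from that of App.

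Around Bace2, the adhesion gene Dscam was at 0.43 ± 0.05 (log2, SE; adjusted p = 0.00305 in limma) and Pcp4 at 0.12 ± 0.05 (adjusted p = 1). The other 4 neighbours were dim, with means from 4.76 to 6.50, and lay near 0. The integrin gene Itgb2l was at -0.0033 ± 0.04, the interferon-induced Mx1 at -0.04 ± 0.04, Fam3b at -0.01 ± 0.04 and Mx2 at 0.02 ± 0.05. Bace2 was the only dim gene of these 5 whose genotypes did not overlap.

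The genes whose profile over the 10 mice was most like that of App were Sod1, Got1 and Grik1, out of 19935 compared. Likeness was the root mean square difference of log2 values centred on each gene's mean, which was 0.0492 for Sod1, 0.052 for Got1 and 0.0576 for Grik1, where App itself deviated from its mean by 0.145. The genotype difference stays in these values, so a gene picked as most like App or Bace2 tends to be higher in Ts65Dn. The folds and calls that follow describe the genes picked and are not separate support. Sod1 (superoxide dismutase) and Grik1 (a kainate receptor subunit) are in 3 copies on the same segment, with folds of 1.23 and 1.248. Grik1 passed in all 10 fits that left out 1 mouse and Sod1 in 2. Got1, a cytosolic aspartate aminotransferase gene outside the segment, had a fold of 1.16 and was not called (adjusted p = 0.0891 in limma). For Bace2 the nearest profiles were those of Bach1, at 0.0642, Fat3, at 0.0652, and Ube2d2a, at 0.0656, against its own deviation of 0.134. Of these, Bach1, a transcription factor gene of the segment, was called with a fold of 1.18 (adjusted p = 0.0404), though in only 1 of 10 fits without 1 mouse, and Fat3 and Ube2d2a, outside it, were not. Fat3 is measured by several clusters, and the mean over them had a difference of -0.03, against 0.20 for the brightest.

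The other genes around amyloid-beta, none of them in 3 copies, were read in 8 lists of 88 genes, of which 83 were measured. Itm2a and L1cam are on the X chromosome, so these male mice of either genotype do not have them in 2 copies. None of the 83 was called in limma in either direction, where 0.316% of all tested clusters were. Before adjustment, 3 positive and 1 negative difference reached p under 0.05, or 4.82% of the 83, beside 3.16% over all clusters. The rank method called 3 higher and 2 lower, and it called 5.36% of all clusters. The median difference was 0.02 over the 83 genes and 0.00 over all tested clusters, and 51 of the 83 (61.4%) were positive, beside 47.55% of all tested clusters.

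Among 9 partners of the alpha-secretases, 0 were at an unadjusted p under 0.05, and those with the smallest p were Tspan15, a tetraspanin that binds ADAM10, at 0.06 ± 0.04 (log2, SE) and the metalloprotease gene Adam9 at 0.05 ± 0.04. The 3 other gamma-secretase subunits lay between -0.02 and 0.09, with the scaffold gene Aph1c at 0.09 ± 0.06 and Psenen, which completes the complex, at -0.02 ± 0.04. Among 11 secretase modulators 0 were under 0.05. The sorting adaptor Gga2 was at 0.10 ± 0.07, and Rtn3, a reticulon that binds BACE1, was at 0.02 ± 0.03. The value of Gga2 ran from 0.05 to 0.15 when 1 mouse was left out, lowest without Ts65Dn replicate 1 and highest without Ts65Dn replicate 5. That of Aph1c ran from 0.05 (without control replicate 3) to 0.14 (without Ts65Dn replicate 5), and that of Tspan15 was 0.03 without control replicate 5.

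Of 11 adaptors that bind the tail of the precursor, Apba1 was at 0.13 ± 0.05 (log2, SE; unadjusted p = 0.0243, adjusted p = 1 in limma) and Shc1 at 0.06 ± 0.04. Of 14 sorting receptors and trafficking genes, the membrane-bending Bin1 was at 0.09 ± 0.03 (unadjusted p = 0.0162, adjusted p = 1 in limma) and Lrp10 at 0.11 ± 0.07. Of 12 genes of amyloid-beta degradation, Plat, the tissue plasminogen activator, was at 0.19 ± 0.08 (unadjusted p = 0.0363, adjusted p = 1 in limma) and Ide, the insulin-degrading enzyme, at 0.15 ± 0.12. The difference of Ide was 0.02 without Ts65Dn replicate 5, that of Lrp10 was 0.05 without control replicate 2, and that of Shc1 was 0.04 without Ts65Dn replicate 1. None of these genes passed over all clusters.

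The single negative value under 0.05 was that of Clu, which encodes the amyloid-beta carrier clusterin, at -0.10 ± 0.04 (log2, SE; unadjusted p = 0.0428, adjusted p = 1 in limma). In the same list of 7, the lipid transporter gene Abca7 was at 0.07 ± 0.03. Of 16 other substrates of these proteases, Sez6, a BACE1 substrate, was at -0.10 ± 0.06 and the receptor gene Notch1 at -0.13 ± 0.08, and 0 were at an unadjusted p under 0.05. The 95% interval of the fold held the value of App for 9 of the 83 genes (Ace, A2m, Ide, Plat, Itm2a, Gga3, Sorcs3, Lrp1 and Lrp1b), so that a change of that size could not be told from none there, except for Plat, whose interval began at 1.01. The widest were those of Ace, from 0.565 to 2.33, and A2m, from 0.823 to 1.58.

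**Figure D5:**
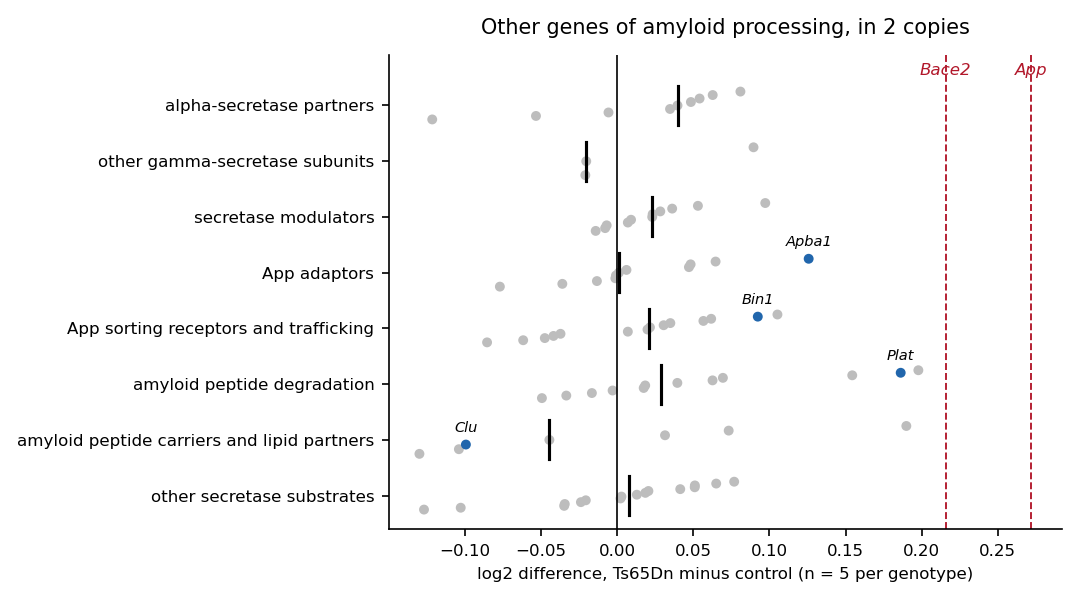
Log2 difference between Ts65Dn and control (n = 5 per group) of 83 further genes of amyloid processing by list; each point is a gene, black bars are list medians, blue points have an unadjusted p under 0.05, and dashed red lines mark Bace2 and App. All 83 genes lie below the value of Bace2.

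Markers of cell types in the tissue were compared because App and its proteases differ between cell types. None of the measured markers of neurons, oligodendrocytes, astrocytes, microglia, endothelial cells or choroid plexus was called in limma, where 0.316% of all tested clusters were. The marker with the smallest p was Wfs1, a gene of pyramidal neurons, with a fold of 0.784 and groups that did not overlap (unadjusted p = 0.000324, adjusted p = 0.0925 in limma). A separation in that direction was found for 0.308% of all tested clusters. Among the other neuron markers, C1ql2, Spink8, Neurod6, Zbtb20 and Prox1 had positive differences, at 0.24, 0.15, 0.09, 0.07 and 0.04 (log2). Bcl11b, Pou3f1 and Crym were at -0.005, -0.02 and -0.03. Apart from Wfs1, the genotypes overlapped for every neuron marker, and the mean of the 9 differed by 0.02 (log2). The mean of the 9 neuron markers ran from 10.13 to 10.45 in Ts65Dn and from 10.24 to 10.32 in controls, and that of the 5 measured oligodendrocyte markers from 11.29 to 11.86 and from 11.58 to 11.72. The mean of 8 choroid plexus markers varied far more, from 6.93 to 9.37 in Ts65Dn and from 6.99 to 9.03 in controls, in mice of both genotypes. With that mean as a covariate, a fit added after its range was seen, App was at 0.27 ± 0.04 (adjusted p = 0.0286 in limma) and Bace2 at 0.21 ± 0.06 (adjusted p = 0.51), beside 0.27 and 0.22 without it. Whether cell makeup had a part in these results was not tested further.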

How the data were processed

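Hippocampal RNA of 10 mice was measured on Affymetrix Mouse Gene ST arrays, 1 per mouse. Per the labels, signals on the log2 scale were deposited after RMA by the authors, which corrects background, quantile-normalizes and summarizes each transcript cluster. RMA, limma and mm10 are named in the submitters' processing notes, with no versions. RMA shrinks ratios at low signal. The number of arrays, 5 per genotype, sets the precision. The labels call the arrays biological replicates.

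Of 35556 rows, the 23410 with a gene symbol in the platform annotation were tested; 21789 have exactly 1 symbol, and 21698 of these were matched to RefSeq (GRCm38) by gene number. The genotype comparison used limma 3.58.1 under R 4.3.3 (lmFit, then eBayes) and no other term, two-sided, with Benjamini-Hochberg adjustment over all tested rows and a threshold of 0.05. Adjusted p-values are from this fit unless a permutation test is named. Values within mice were compared by two-sided exact permutation tests (scipy 1.17.1), with 0.00794 as the smallest p. Plots were drawn with matplotlib 3.10.9.

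The study's own test ranks fold changes over array pairs. A method of that kind was written anew as an alternative, over all 25 pairs with mean ranks trimmed by 0.25. On simulated data for the 23410 rows, limma called 144, with 5.56% of calls false, and found 49% of the 0.3 and 87% of the 0.6 log2 changes put in. All changes were put into rows above the median signal, so these rates do not cover a dim gene such as Bace2. With no change limma called 0 and the rank method 1311. The noise was drawn for each row and array on its own, whereas same-numbered mice correlated at up to 0.507 in the data. All these rates may therefore differ in the real arrays.

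Named are the 9 genes, the 2 of each list with the smallest p, the 3 neighbours on each side of App and Bace2 and the 3 profiles most like each. Also named are the 9 neuron markers and genes given in the text as looked up afterwards. The latter are segment genes by signal, list genes on the X chromosome and list genes whose interval held the fold of App. The members and lists were chosen with earlier results of these data known. Of the 88 listed genes, 83 are reported and the others were not analysed here.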

Additional observations from a re-analysis of the deposited data

Results flagged for a closer look

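Of 96 groups of 5 mice examined (the named genes and the within-mouse values), 5 held a mouse far from the other 4, where chance gives about 1 in 20 groups, so the number is near that of chance. The App signal of control replicate 1, at 12.70, was the lowest of its group, with the next at 12.83, and the difference without it was 0.24. For Bace2 minus the other 3-copy genes, Ts65Dn replicate 5, at -3.34, was above the next at -3.59, and the difference without it was -0.23. Ts65Dn replicate 5 was also low for Aph1c, at 8.01 with the next at 8.22, and high for Ide, at 10.07 with the next at 9.52. Control replicate 4 was high for Abca7, at 7.43 with the next at 7.36.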

How the results depend on the processing

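App kept its direction in all 22 limma alternatives and passed in 19 of them, with adjusted p from 0.00512 to 0.0549, and its difference ran from 0.24 to 0.29 when each mouse was left out in turn. Bace2 kept its direction and was not called in any limma alternative; it could not be fitted with rows above the median signal, since it is dimmer, and the rank method called it at the same difference of 0.22. The counts of called 2-copy members and of called pathway genes were 0 throughout, except for 5 pathway genes by the rank method, which called 1255 clusters over the genome. Without 1 mouse, Bace2 minus Bace1 ran from 0.15 to 0.23, App minus the other 3-copy genes from -0.14 to -0.10 and Bace2 minus these genes from -0.23 to -0.15, while App minus both paralogues passed in all 10. Bace2 minus Bace1 missed the threshold at 0.21 after a repeated quantile normalization and at 0.21 after cyclic loess, as did Bace2 minus the other 3-copy genes at -0.16 after each. App minus these genes missed it at -0.15 with their median. Against all other segment genes, most of them dim with folds near 1, the values turned to 0.0614 for App and 0.0052 for Bace2.

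Same-numbered mice correlated at 0.507, 0.269, 0.325, 0.0313 and 0.459 after removal of the genotype means, and 4 of 5 Ts65Dn mice correlated best with their own number, a hint from the data and not from the design. With this replicate block App was called (limma adjusted p = 0.0248) and Bace2 was not (adjusted p = 0.341), and the counts were 0 for the 2-copy members and the pathway genes. The within-mouse values cannot pass with 5 pairs, where the smallest p is 0.0625; they stayed at 0.29 and 0.26 for App minus Aplp1 and Aplp2, 0.19 for Bace2 minus Bace1, -0.12 for App minus the other 3-copy genes and -0.17 for Bace2.

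Values near 0 changed sign. Aplp2 was -0.0094 with array weights. Psen2 was 0.0018 after cyclic loess, 0.0009 after median centring and 0.0004 after a repeated quantile normalization. Itgb2l was 0.002 with array weights, 0.0066 after cyclic loess, 0.0012 after median centring and 0.0089 after a repeated quantile normalization. It was 0.0042 with the choroid plexus mean as a covariate, a setting chosen after seeing the data. Fat3 was -0.0283 over all its clusters. Without 1 mouse Aplp1 ran from -0.0424 to 0.0005, Aplp2 from -0.0434 to 0.0543, Bace1 from -0.0028 to 0.0507, Psen2 from -0.0197 to 0.0195, Ncstn from -0.0159 to 0.0468, Itgb2l from -0.0207 to 0.0161, Fam3b from -0.026 to 0.0162 and Mx2 from -0.0055 to 0.0534. The cause of these changes was not tested.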
